A study of Mus musculus with 6 samples.

Results

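The endoglin and ALK1 receptor genes, with transforming growth factor beta (TGF-beta), bone morphogenetic protein (BMP) and early BMP response genes, were followed across 3 groups of mouse embryo samples. The 10 genes (Eng, Acvrl1, Tgfb1, Tgfbr2, Bmp4, Smad6, Smad7, Id1, Id2 and Id3) were taken by symbol from the platform annotation, which gave 10 of the 18193 genes with a probe set of their own and 18 of the 45101 probe sets on the array. Of these, 17 probe sets, covering all 10 genes, passed the filter on dim values, and the dimmest Tgfbr2 probe set did not. RNA came from ICR embryos at 8.5 days post coitum, at a stage of 3 to 4 somites, when the circulation is only beginning to form. It was hybridised to Affymetrix arrays, 2 arrays for each of Flk1-positive cells, Flk1 knockout (Flk1 KO) embryos and wild-type (WT) embryos. Flk1, encoded by Kdr, is the VEGF receptor of endothelial cells and their precursors. The embryo groups were the embryo proper. The genotype label of the cells reads Flk1-positive, while Flk1+/GFP embryos are named in the design text, so a difference in genotype and the selection of the cells cannot be told apart. How the cells were selected and what the knockout allele is are not given in the sources used here. Separate litters or pools for the arrays within a group are not stated, so p-values rest on a spread between samples that may be technical only.

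Endoglin is a coreceptor and ALK1, the product of Acvrl1, is a type I receptor. Both act on the endothelial surface in a complex that binds circulating BMP ligands and passes the signal to SMAD transcription factors. Loss of either gene causes hereditary haemorrhagic telangiectasia, a disease of malformed vessels, in humans. Activated SMADs raise transcription of the inhibitory SMAD genes, which feed back on the pathway, and of Id genes, whose products bind basic helix-loop-helix factors and keep them from DNA. In the early embryo BMP ligands as a family, and Id genes, are used by many tissues besides vessels.

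The arrays were alike in scale, with 54.3% to 57.8% of probe sets above a background signal of 57.4, taken from probe sets of odour and pheromone receptors. The correlation of log2 values within groups was 0.981 to 0.985, and the number of arrays limits the precision. Kdr, the targeted gene, reached a signal of 3309 and 3328 on the arrays of Flk1-positive cells, 29.5 and 63.8 in Flk1 KO embryos, and 543.9 and 545.5 in WT embryos, which follows the labels. Whether its probes fall in the altered stretch of the gene is unknown. All 8 endothelial markers were higher in Flk1-positive cells than in the WT embryos, and so were all 5 primitive erythroid markers. Probe sets at both ends of a transcript track RNA quality. The transferrin receptor had a 3' end brighter than its 5' end by log2 values of 1.26 and 1.35 in Flk1-positive cells and by 0.94 to 1.05 on the embryo arrays. For Actb the values were 0.26 and 0.29 in Flk1-positive cells and 0.47 to 0.58 on the embryo arrays. Their part in the results below was not tested. Signals are linear and in arbitrary units, so they are compared between arrays for a given probe set and never between genes. Differences are in log2(signal + 21.6), a scale that shrinks the changes of dim genes, and each ± is the SE of the limma fit (n = 2 arrays in each group). Folds are on this scale too, while percentages of the WT signal are ratios of mean signals without the added 21.6.

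The receptor genes, Tgfb1 and Smad6 were higher in Flk1-positive cells than in the WT embryos, Id2 was lower, and Bmp4, Smad7, Id1 and Id3 did not pass the test. The 10 genes were chosen with earlier results of these data known, and some have several probe sets, so their counts are descriptive only. Of the 17 probe sets tested, 9 were higher and 3 lower (limma, Benjamini-Hochberg adjusted p below 0.05). The 9 include a Tgfbr2 probe set, described below, that passed the filter only through Flk1-positive cells. Over all 33820 probe sets tested, 11.6% were higher and 14.4% lower, so 26.0% were called in either direction, against 70.6% of the 17. At an unadjusted p below 0.05, 9 were higher and 4 lower, where all probe sets gave 17.1% and 21.8%. Both Flk1-positive arrays lay above both WT arrays for 11 of the 18 probe sets and below them for 4, against 31.3% and 36.8% of all probe sets tested. The 11 include the untested Tgfbr2 probe set, which was below background on all arrays. By gene, 5 of the 10 were higher and 1 lower, with a median difference of 0.54 over the brightest probe sets, against -0.04 over all probe sets tested. Against Flk1 KO embryos the same counts, 9 higher and 3 lower, were found for Flk1-positive cells, where 13.8% and 15.4% of all probe sets were called, 29.2% in either direction. The Tgfbr2 probe set that passed the filter only through Flk1-positive cells is again among the 9. Unadjusted, 9 were higher and 4 lower, with 19.8% and 21.8% over all probe sets. The arrays did not overlap for 11 higher and 5 lower of the 18, with 32.2% and 34.0% of all probe sets tested. The untested Tgfbr2 probe set is again among the 11. Comparisons that share a group share its 2 arrays. In Flk1 KO embryos against WT embryos, 0 of the 17 probe sets passed limma in either direction, where 0.0798% of all probe sets were called lower and 0 higher. At an unadjusted p below 0.05, 6 of the 17 were lower and 0 higher, against 5.91% and 2.47% of all probe sets. For 9 of the 18 the Flk1 KO arrays were both lower than the WT arrays and for 2 both higher, against 21.4% and 16.7%. The untested Tgfbr2 probe set is in neither of these counts.

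**Figure D1:**
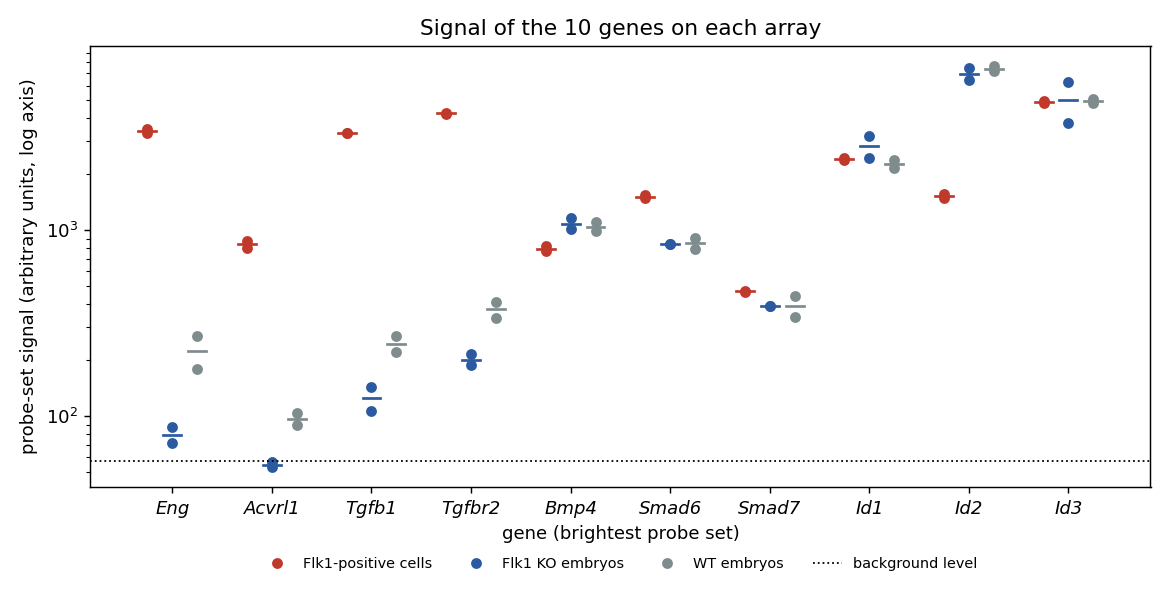
Signal (arbitrary units, log axis) of the brightest probe set of each of the 10 genes on each array. Points are arrays, short lines are group means, and the dotted line is the background level of 57.4. Levels can be compared between groups of a gene and not between genes. Eng, Acvrl1, Tgfb1 and Tgfbr2 lie highest in Flk1-positive cells and lowest in Flk1 KO embryos, and Id2 lies lowest in Flk1-positive cells.

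Eng, the endoglin gene, reached a signal of 3490 and 3337 on the arrays of Flk1-positive cells, 87.6 and 71.5 in Flk1 KO embryos, and 270.2 and 179 in WT embryos. The arrays of the 3 groups did not overlap, and the Flk1 KO arrays were the lowest. Eng was 3.83 ± 0.21 higher in Flk1-positive cells relative to WT embryos (limma adjusted p = 0.000476), a 14.2-fold difference. A second Eng probe set had 1829 and 1333 in Flk1-positive cells, 9.93 and 6.34 in Flk1 KO embryos, and 82.6 and 76.9 in WT embryos. It was 3.97 ± 0.19 higher in Flk1-positive cells (limma adjusted p = 0.000413), so the 2 probe sets gave like values. In Flk1 KO embryos the brighter probe set kept 35.5% of its WT signal and differed by -1.26 ± 0.21 (limma adjusted p = 0.214). The second was not above background in Flk1 KO embryos, and WT embryos were at least 1.28-fold brighter (limma adjusted p = 0.0856).

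Acvrl1, which encodes ALK1, reached a signal of 806.3 and 873 on the arrays of Flk1-positive cells, 56.4 and 53.4 in Flk1 KO embryos, and 103 and 89.5 in WT embryos. The 3 groups did not overlap, and neither Flk1 KO array was above background. The difference was 2.87 ± 0.13 between Flk1-positive cells and WT embryos (limma adjusted p = 0.000409), 7.30-fold. A second probe set had 712 and 803 in Flk1-positive cells, 54.2 and 75.1 in Flk1 KO embryos, and 136 and 111 in WT embryos, and was 2.43 ± 0.18 higher in Flk1-positive cells (limma adjusted p = 0.000856). Between Flk1-positive cells and Flk1 KO embryos, Acvrl1 was at least 10.9-fold higher by the brighter probe set (limma adjusted p = 0.000191). Between Flk1 KO and WT embryos it did not pass. There the brighter probe set was at least 1.49-fold brighter in WT embryos (limma adjusted p = 0.334), and the second differed by -0.75 ± 0.18 (limma adjusted p = 0.381).

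Tgfb1, the founding TGF-beta ligand, and Tgfbr2, the type II receptor for TGF-beta, had the same order of groups. Tgfb1 reached a signal of 3315 and 3345 on the arrays of Flk1-positive cells, 144 and 107 in Flk1 KO embryos, and 222 and 269 in WT embryos. Tgfb1 was 3.66 ± 0.18 higher in Flk1-positive cells relative to WT embryos (limma adjusted p = 0.000435), 12.6-fold. A dimmer Tgfb1 probe set, not above background in either embryo group, was at least 1.91-fold higher in Flk1-positive cells than in the WT embryos (limma adjusted p = 0.00524). Tgfbr2 reached a signal of 4292 and 4205 on the arrays of Flk1-positive cells, 215 and 189 in Flk1 KO embryos, and 339 and 411 in WT embryos. Tgfbr2 was 3.43 ± 0.15 higher in Flk1-positive cells relative to WT embryos (limma adjusted p = 0.00039), 10.8-fold. A second Tgfbr2 probe set had 338 and 437 in Flk1-positive cells and at most 7.36 on the 4 embryo arrays, at least 5.14-fold higher than the WT embryo mean (limma adjusted p = 0.00039). Its mean log2 values of 4.72 in Flk1 KO and 4.77 in WT embryos lay below the filter of 5.43, so it passed only through Flk1-positive cells. A stricter filter left out both it and the dimmer Tgfb1 probe set. The remaining Tgfbr2 probe set, left out of the main test, was at most 15.8 on all arrays, below background. Flk1 KO embryos had 51.0% of the WT signal for Tgfb1 (difference -0.87 ± 0.18, limma adjusted p = 0.309) and 53.8% for Tgfbr2 (-0.83 ± 0.15, limma adjusted p = 0.241).

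Of the 17 tested probe sets, 7 had both Flk1-positive arrays above both WT arrays and both WT arrays above both Flk1 KO arrays. They were both probe sets of Eng, Acvrl1 and Tgfb1 and the brightest of Tgfbr2, and 6.76% of all probe sets tested had this order. For the dimmer Tgfb1 probe set no embryo array was above background, so there WT and Flk1 KO embryos are ordered by values below it. The endothelial markers had it too. Their summed signal was 39525 to 40244 in Flk1-positive cells, 585.6 to 718 in Flk1 KO embryos and 2601 to 2803 in WT embryos. In Flk1 KO embryos 6 of the 8, Cdh5, Pecam1, Tie1, Emcn, Esam and Cldn5, had means below background, and 4 of the 8 (Tie1, Esam, Cldn5 and Plvap) were called lower than in WT embryos, where 0.0798% of all probe sets were. These 4 calls ended when any 1 array was left out, with the smaller pseudocount, with only these groups fitted and with a replicate block, settings that gave 0 calls over all probe sets. In whole embryos, fewer endothelial cells and less RNA per cell cannot be told apart. Primitive erythroid markers summed to 42788 to 44519 in Flk1-positive cells, 142 to 272 in Flk1 KO embryos and 479 to 985 in WT embryos. The 6 markers of other blood cells summed to 5398 to 5485, 351 to 589 and 579.5 to 583 in the same groups. Among the erythroid markers, Hbb-bh1 alone had 28584 and 29097 in Flk1-positive cells. In Flk1 KO embryos 4 of these 5 had means below background. Against WT embryos 0 of the 5 were called, and the embryo arrays overlapped for Hba-x, Gata1 and Klf1. The part of these cells in the signals of the 4 genes was not tested.

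Set against Flk1 KO embryos, Eng was 5.09 ± 0.21 higher in Flk1-positive cells (limma adjusted p = 0.000219). The same difference was 4.52 ± 0.18 for Tgfb1 (limma adjusted p = 0.000196) and 4.26 ± 0.15 for Tgfbr2 (limma adjusted p = 0.000179). Smad6 and Id2, described next, differed by 0.83 ± 0.13 (limma adjusted p = 0.00868) and -2.16 ± 0.14 (limma adjusted p = 0.000478). The Smad6 call here ended without Flk1-positive replicate 1 (limma adjusted p = 0.0509).

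**Figure D2:**
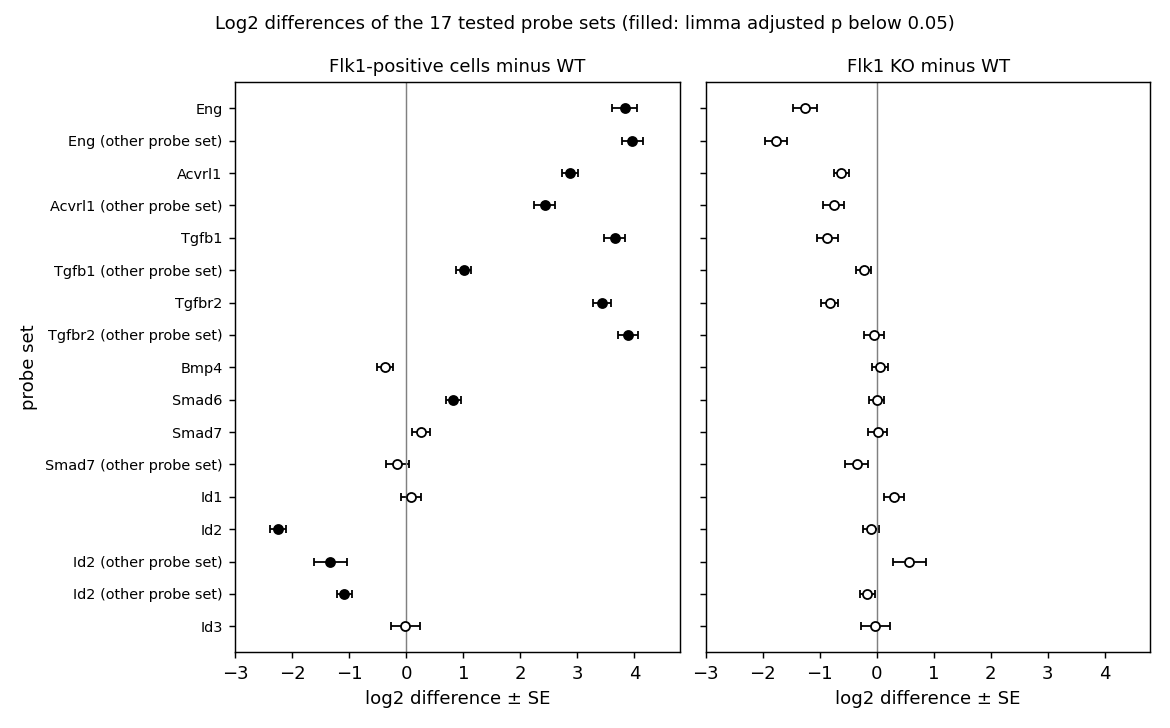
Log2 difference ± SE (limma, 2 arrays per group) of each tested probe set, for Flk1-positive cells minus WT embryos on the left and Flk1 KO minus WT embryos on the right. Filled points have a limma adjusted p below 0.05. Both probe sets of Eng lie near 4 on the left and below -1 on the right, where no point is filled.

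Bmp4, a ligand needed for mesoderm and blood formation, was well above background in all groups. Its signals were 771 and 820.5 in Flk1-positive cells, 1156 and 1014 in Flk1 KO embryos, and 985 and 1103 in WT embryos. Both Flk1-positive arrays lay below the 4 embryo arrays, and the embryo groups overlapped. The difference between Flk1-positive cells and WT embryos was -0.38 ± 0.14 (95% interval -0.74 to -0.03, limma adjusted p = 0.109). With an intensity trend and a robust prior this passed (limma adjusted p = 0.0336). Between Flk1 KO and WT embryos the interval was -0.30 to 0.41.

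Of the inhibitory SMAD genes, Smad6 passed the test and Smad7 did not. Smad6, which acts mainly on BMP signals, reached a signal of 1539 and 1491 on the arrays of Flk1-positive cells, 841 and 846 in Flk1 KO embryos, and 788 and 909 in WT embryos. Flk1-positive cells lay above both embryo groups, which overlapped. Smad6 was 0.82 ± 0.13 higher in Flk1-positive cells relative to WT embryos, 1.77-fold (limma adjusted p = 0.00973). It did not pass without Flk1-positive replicate 1 (limma adjusted p = 0.0561) or WT replicate 1 (limma adjusted p = 0.0647). Smad7, which acts on both branches, had 466 and 472 in Flk1-positive cells, 393 and 391 in Flk1 KO embryos, and 444 and 339.9 in WT embryos. Its difference between Flk1-positive cells and WT embryos was 0.26 ± 0.16 (95% interval -0.15 to 0.66, limma adjusted p = 0.301). A second Smad7 probe set, of a type whose probes can match other transcripts, differed by -0.16 ± 0.20 (limma adjusted p = 0.606). Whether Smad6 and Smad7 differed from each other was not tested. Between Flk1 KO and WT embryos the intervals were -0.34 to 0.33 for Smad6 and -0.39 to 0.42 for the brighter Smad7 probe set.

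Of the 3 Id genes, Id2 alone passed the test in Flk1-positive cells against WT embryos. Whether it differed from the other 2 was not tested. Id2 reached a signal of 1574 and 1496 on the arrays of Flk1-positive cells, 6419 and 7477 in Flk1 KO embryos, and 7644 and 7159 in WT embryos. Flk1-positive cells lay far below both embryo groups, which overlapped. The Id2 difference was -2.25 ± 0.14 between Flk1-positive cells and WT embryos, 4.77-fold lower (limma adjusted p = 0.000565). A second Id2 probe set had 335 and 373 in Flk1-positive cells, 1857 and 1029 in Flk1 KO embryos, and 986.5 and 865 in WT embryos. It differed by -1.33 ± 0.29 (limma adjusted p = 0.024), which did not pass once any of the Flk1-positive or WT arrays was dropped, with limma adjusted p-values of 0.0746 to 0.115. The dimmest had 66.3 and 73.1 in Flk1-positive cells, 159 and 144 in Flk1 KO embryos, and 169 and 176 in WT embryos, and differed by -1.09 ± 0.13 (limma adjusted p = 0.00347). All 3 Id2 probe sets were thus lower in Flk1-positive cells. In Flk1 KO against WT embryos none was called, and their differences were -0.09 ± 0.14, 0.57 ± 0.29 and -0.17 ± 0.13 (limma adjusted p = 0.905, 0.685 and 0.811).

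Id1 reached a signal of 2434 and 2372 on the arrays of Flk1-positive cells, 3204 and 2437 in Flk1 KO embryos, and 2378 and 2156 in WT embryos. Flk1-positive and WT arrays overlapped, and both Flk1 KO arrays lay above them. The difference was 0.09 ± 0.17 between Flk1-positive cells and WT embryos (95% interval -0.35 to 0.52, limma adjusted p = 0.754) and 0.30 ± 0.17 between Flk1 KO and WT embryos (95% interval -0.13 to 0.73, limma adjusted p = 0.731). Id3 had 4847 and 4928 in Flk1-positive cells, 6290 and 3759 in Flk1 KO embryos, and 5109 and 4808 in WT embryos. The Flk1 KO arrays lay on either side of all the others. The Id3 difference was -0.02 ± 0.25 between Flk1-positive cells and WT embryos (95% interval -0.66 to 0.62, limma adjusted p = 0.964). With 2 arrays per group, differences within the intervals given for Id1 and Id3 are not excluded. The intervals are not adjusted for the number of probe sets tested. Id4, the remaining family member and not among the 10 genes, had 69.2 and 73.9 in Flk1-positive cells, 493 and 492.8 in Flk1 KO embryos, and 491 and 517 in WT embryos, a difference of -2.50 ± 0.12 (limma adjusted p = 0.000435).

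Markers of other tissues moved in the same direction as Id2. All 5 neuroectoderm markers were called lower in Flk1-positive cells, with sums of 166 to 339 in Flk1-positive cells, 7034 to 7777 in Flk1 KO embryos and 8206 to 8407 in WT embryos. All 6 cardiomyocyte markers were lower, with sums of 1269 to 1350, 23221 to 34725 and 17059 to 17565 in the same groups. Of 6 mesenchymal and mural markers 5 were lower, with sums of 3160 to 3260, 13272 to 15061 and 10781 to 11331. Of 5 gut endoderm markers 4 were lower, with sums of 5053 to 5443, 6405 to 7669 and 7951 to 8509. The fifth, Sox17, which endothelium also uses, was higher and is included in these sums. Sox17 alone had 4660 and 5039 in Flk1-positive cells, 369 and 921 in Flk1 KO embryos, and 1232 and 1238 in WT embryos. The sums therefore understate how low the other 4 were in Flk1-positive cells. All 5 yolk sac endoderm markers were lower, with sums of 6213 to 6415, 21590 to 23159 and 15246 to 17388. In Flk1-positive cells Pax6, Otx2, Sox1, Myh6, Myl3, Cnn1, Epcam, Foxa2 and Fgb had means below background. The part of these tissues in the level of Id2 was not tested.

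Promoter sequence was available for 7 of the 10 genes from RefSeq on GRCm38.p6. The stretches before the transcription start of a receptor gene higher in Flk1-positive cells (Eng), an inhibitory SMAD gene that was higher (Smad6), an Id gene that was lower (Id2) and an Id gene without a call (Id3) are shown for comparison. Each holds 250 bases, ends at the base before the start and reads 5′ to 3′ on the strand of the gene. Capitals mark GGCGCC, a GC-rich element bound by BMP-responsive SMADs, and GTCT on either strand, the core SMAD element.
Eng, chr2:32646345-32646594, plus strand: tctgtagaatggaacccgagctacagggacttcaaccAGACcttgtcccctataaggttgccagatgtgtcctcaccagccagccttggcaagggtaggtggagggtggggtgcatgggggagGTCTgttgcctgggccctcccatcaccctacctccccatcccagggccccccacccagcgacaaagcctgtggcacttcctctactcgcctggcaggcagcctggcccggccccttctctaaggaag
Smad6, chr9:64022060-64022309, minus strand: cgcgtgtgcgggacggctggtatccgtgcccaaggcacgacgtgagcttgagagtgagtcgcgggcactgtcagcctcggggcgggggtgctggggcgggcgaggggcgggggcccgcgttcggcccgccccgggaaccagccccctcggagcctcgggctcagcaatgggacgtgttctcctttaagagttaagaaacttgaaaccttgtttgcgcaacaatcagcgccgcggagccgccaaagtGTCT
Id2, chr12:25096093-25096342, minus strand: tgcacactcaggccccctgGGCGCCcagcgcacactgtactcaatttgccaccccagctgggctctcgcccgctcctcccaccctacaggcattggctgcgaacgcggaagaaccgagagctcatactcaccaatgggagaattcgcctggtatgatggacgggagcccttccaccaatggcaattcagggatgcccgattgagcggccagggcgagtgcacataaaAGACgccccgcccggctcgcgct
Id3, chr4:136143572-136143821, plus strand: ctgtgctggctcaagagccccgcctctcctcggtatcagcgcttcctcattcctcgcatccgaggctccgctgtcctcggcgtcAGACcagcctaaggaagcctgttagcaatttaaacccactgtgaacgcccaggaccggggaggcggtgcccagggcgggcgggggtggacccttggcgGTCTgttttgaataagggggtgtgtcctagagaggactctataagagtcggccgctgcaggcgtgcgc
GGCGCC was found in the Id2 promoter, starting 231 bases before the start, and not in those of Eng, Tgfb1, Tgfbr2, Bmp4, Smad6 or Id3. Of 32851 promoters in the table, searched over 250 bases before and 50 after the start, 11.9% held it. GTCT on either strand was in all 7 promoters and in 88.0% of those in the table. The pair spaced by 5 bases was in none of the 7 and in 0.0731% of the table. The motifs do not overlap each other here, and a match describes letters only.

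Of 56 other genes of the pathway, 52 had a probe set with that symbol alone and 51 were tested. In Flk1-positive cells against WT embryos 10 were higher, 21 lower and 20 not called, with a median of -0.44. Over all probe sets tested 11.6% were higher and 14.4% lower, with a median of -0.04. This list too was chosen with earlier results known, so the contrast is descriptive only. In Flk1 KO against WT embryos 0 of 51 were called by limma in either direction, against 0.0798% of all probe sets. Only the brightest probe set of each gene was used, and of the 31 genes called 18 kept their call under every alternative listed below.

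Among ligands, 2 of 12 were higher and 5 lower in Flk1-positive cells. Bmp6 reached 527 and 554.5 in Flk1-positive cells, against 83.0 and 99.8 in WT embryos, a difference of 2.32 ± 0.14 (limma adjusted p = 0.000549). The other ligand that was higher, Bmp2, differed by 1.17 ± 0.18, a call lost without WT replicate 1. Bmp5 was lower (-2.05 ± 0.22), and Nodal, the ligand of the node and left side, was at least 3.13-fold lower, which did not pass once any of the Flk1-positive or WT arrays was dropped. Of the other ligands that were lower, Tgfb2 lost its call under 8 of 17 alternatives and Tgfb3 under 2 of 16, while Bmp7 kept it. Gdf2 and Bmp10, known as the ligands of ALK1 and endoglin, were not called. Gdf2 had 143 and 101 in Flk1-positive cells and 199.8 and 119 in WT embryos, and Bmp10 was below background on all 6 arrays.

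Among receptors, 4 of 9 were higher and 4 lower. The coreceptor Tgfbr3 (betaglycan), a relative of endoglin, had 4222 and 4568 in Flk1-positive cells and 666 and 941 in WT embryos, a difference of 2.44 ± 0.20 (limma adjusted p = 0.00106). The others that were higher were the type I receptors Acvr1 (1.36 ± 0.12) and Acvr1b (0.95 ± 0.14, a call lost without WT replicate 1 or with the median over its probe sets) and the type II receptor Bmpr2 (1.09 ± 0.14). Lower were Acvr2b (-1.81 ± 0.14), Bmpr1a (-1.66 ± 0.15), Acvr2a (-0.67 ± 0.13) and Bmpr1b (at least 1.29-fold), the last 2 losing their calls under 5 and 7 alternatives. Tgfbr1, the type I partner of Tgfbr2, had 3041 and 3337 in Flk1-positive cells and 4425 and 4547 in WT embryos and was not called (-0.49 ± 0.15, limma adjusted p = 0.0604). Receptors of the same pathway thus moved in both directions.

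Among the 6 SMADs that carry signals, Smad3, of the TGF-beta branch, was lower (-1.16 ± 0.13, limma adjusted p = 0.00263) and the other 5 were not called. Of these 5, Smad9 was below background on all 6 arrays. Smad1 had 2049 and 2075 in Flk1-positive cells and 2304 and 1875 in WT embryos. Of 7 intracellular inhibitors and the decoy receptor, the decoy receptor gene Bambi (1.05 ± 0.12) and the ubiquitin ligase gene Smurf1 (0.75 ± 0.14) were higher and the repressor gene Tgif1 was lower (-2.06 ± 0.14). The Smurf1 call ended when either Flk1-positive array, or WT replicate 2, was dropped. None of 9 extracellular antagonists and modulators was higher and 6 were lower. Of the 6, Chrd lost its call under 13 of 17 alternatives, Grem1 under 9 and Twsg1 under 5. Fst, which encodes follistatin, a trap for activins and BMPs, had 256 and 199 in Flk1-positive cells and 1846 and 2210 in WT embryos (-3.05 ± 0.27, limma adjusted p = 0.00139). Bmper was lower by a log2 difference of -1.83 ± 0.16, and Nog, the BMP antagonist noggin, was at least 2.14-fold lower.

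Of 8 other response genes, 2 were higher and 4 lower. Hey1, a repressor that BMP and Notch signals induce, was higher (1.55 ± 0.17), and so was Tmem100, an ALK1 response gene of endothelium (0.83 ± 0.22, limma adjusted p = 0.0438), whose call ended with the smaller pseudocount, without a filter and without any of the Flk1-positive or WT arrays. The homeobox genes Msx1 (-1.54 ± 0.17) and Msx2 (-2.55 ± 0.23) and the family member Id4, described above, were lower. Atoh8 was lower by at least 1.16-fold, and dropping replicate 1 of either group ended its call.

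**Figure D3:**
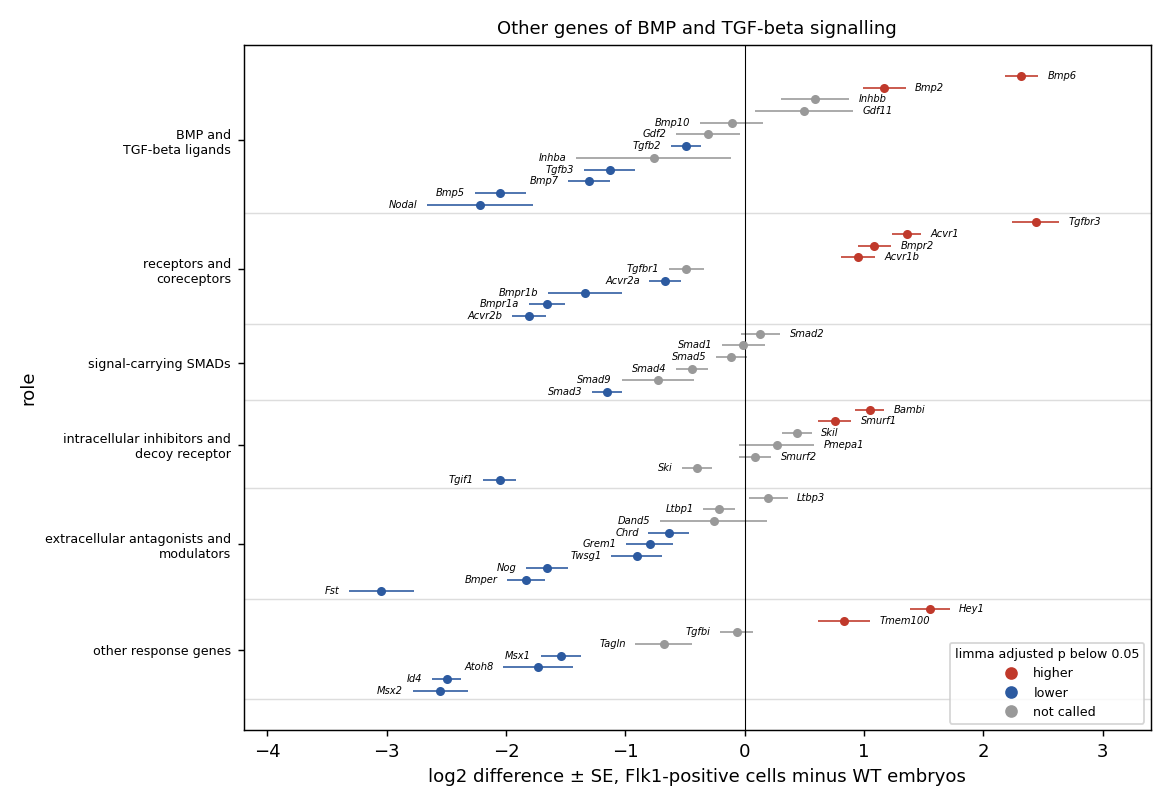
Log2 difference ± SE (limma, 2 arrays per group) between Flk1-positive cells and WT embryos for the 51 other pathway genes tested, grouped by role. Red points were higher and blue points lower at a limma adjusted p below 0.05, and grey points were not called. Tgfbr3 and Bmp6 lie farthest to the right and Fst farthest to the left, and no extracellular antagonist is red.

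The genes whose log2 profiles lay nearest to that of Eng over the 6 arrays, after subtracting each gene's mean, were Grap, Pecam1, Myzap, Adgrf5 and Nrros, with root mean square differences of 0.10, 0.11, 0.16, 0.18 and 0.21. Those nearest to Id2 were Six4, Gabra3, Cyfip2, Kif21a and Stk26, with differences of 0.04, 0.07, 0.07, 0.08 and 0.08. Means of Grap, Pecam1 and Myzap in Flk1 KO embryos, and of Grap in WT embryos, were below background. So were those of Gabra3 and Cyfip2 in Flk1-positive cells. The nearness of these profiles therefore depends in part on the pseudocount. Pearson's r with the gene they resemble rounded to 0.997 or more for all 10, as a description over 6 arrays that share 3 groups. These genes were picked for nearness, so a high r was built in. Pecam1 had 2680 and 2634 in Flk1-positive cells, 49.9 and 45.2 in Flk1 KO embryos and 173 and 110 in WT embryos. Six4 had 193 and 176 in Flk1-positive cells, 778 and 949.8 in Flk1 KO embryos and 1025 and 935 in WT embryos.

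**Figure D4:**
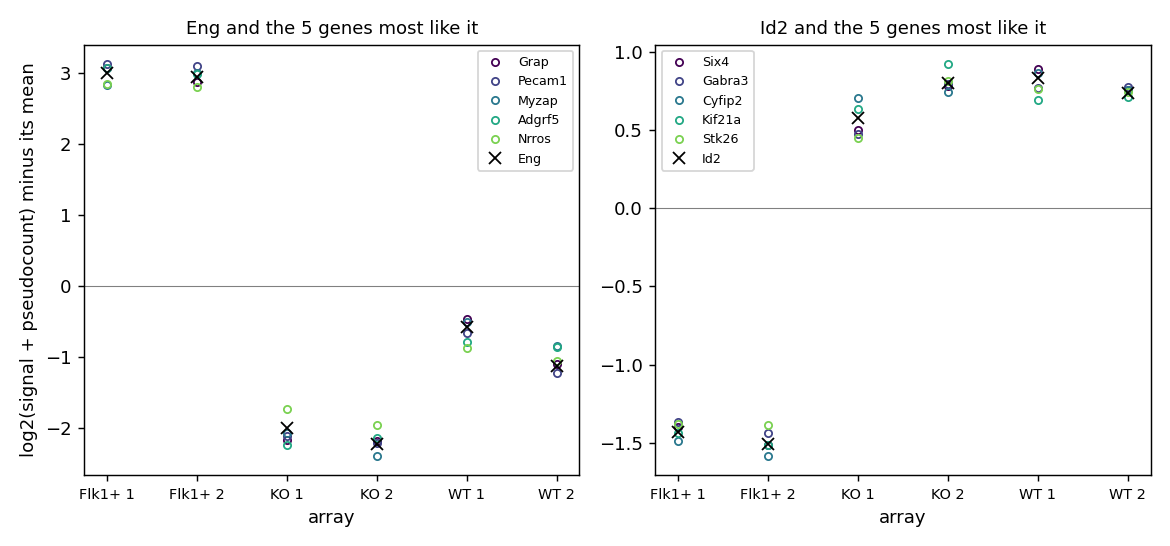
Log2(signal + 21.6) minus the gene's mean over the 6 arrays, for Eng (left) and Id2 (right) as crosses and the 5 genes most like each as open circles. Arrays run from Flk1-positive cells (Flk1+) through Flk1 KO to WT embryos. The genes shown with Eng step down from Flk1-positive cells to WT to Flk1 KO embryos, and those shown with Id2 are low in Flk1-positive cells alone.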

How the data were processed

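Per the labels' protocols, an RNeasy Micro kit gave the RNA, which was biotin-labelled for Affymetrix GeneChips. The deposited values are linear probe-set intensities, which the authors had scaled: the trimmed mean (2% left out at each end) was 500.0 on every array and the lowest value 1. The sources used here do not give the program, though the design text names GeneSpring. The members and lists were chosen with earlier results of these data known.

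Probe sets were named where the platform annotation gave 1 symbol (34958 of 45101, with 932 having several and 9211 none), and all 10 genes kept their symbol in RefSeq. A gene was represented by its brightest probe set. Signals were transformed as log2(signal + 21.6), the pseudocount being the 25th percentile of all values. Array medians lay within 0.147, inside the limit of 0.2, so the deposited scale was kept. The 64 control probe sets and those with a mean log2 value below 5.43 were left out, leaving 33820. Limma 3.58.1 in R 4.3.3 (group as the only term, all 6 arrays, 3 residual and 2.49 prior degrees of freedom, two-sided, Benjamini-Hochberg over all probe sets, threshold 0.05) was also run on simulated data. These were drawn from its own fitted prior with independent noise, so they say nothing about arrays that may be technical repeats. Where the dimmer mean lay below background (95th percentile of 80 olfactory and vomeronasal probe sets), a fold is given as at least the brighter mean over that level, both with the pseudocount added. Named pathway genes were up to 3 per role with the largest called difference, and others named by role or count were chosen after their values were seen. Profiles were compared by root mean square difference. The main fit did not pair arrays by the replicate numbers of the titles. Deviations from group means correlated at 0.01 to 0.03 between groups, which cannot show whether arrays shared a litter or pool. Alternatives were other pseudocounts, filters, scalings, variance priors, samples, a replicate block, the median of all probe sets per gene and leaving out each array. Python 3.11.15 with matplotlib 3.10.9 drew the figures.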

Additional observations from a re-analysis of the deposited data

How the results depend on the processing

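The limits are few arrays and an unknown relation between them. For the 6 genes called in Flk1-positive cells against WT embryos, 100 of 102 values under the alternatives kept their direction and call, and both exceptions were Smad6 on leaving out 1 array. Against Flk1 KO embryos 101 of 102 did, the exception again being Smad6, without Flk1-positive replicate 1 (limma adjusted p = 0.0509). The log2 difference from WT embryos ranged over the alternatives from 3.53 to 4.10 for Eng, 2.38 to 3.05 for Acvrl1, 2.33 to 3.78 for Tgfb1, 3.25 to 3.66 for Tgfbr2, 0.72 to 0.92 for Smad6 and -2.30 to -1.33 for Id2.

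Calls in Flk1 KO against WT embryos depended on the setting. Of all probe sets 27 were lower and 0 higher as reported. There were 0 lower with the smaller pseudocount, with only these groups fitted or with a replicate block, 7 without a filter, 12 after quantile normalization and 14 after median centring. There were 68 lower and 6 higher with the larger pseudocount, 87 lower and 7 higher with the stricter filter, and 121 lower and 13 higher with an intensity trend and a robust prior. Member calls in this comparison were 1 under the stricter filter (Eng, second probe set, limma adjusted p = 0.0142) and 3 with the trend and robust prior (the brighter and the second Eng probe set and the brightest of Tgfbr2, limma adjusted p = 0.018, 0.0047 and 0.0307), all lower. The replicate block changed no member call. With it, 3482 probe sets were higher and 4257 lower in Flk1-positive cells than in the WT embryos, where the fit without it gave 3923 and 4876. Bmp4 was called lower against Flk1 KO embryos with the larger pseudocount, the stricter filter and the trend and robust prior (limma adjusted p = 0.0382, 0.0321 and 0.017).

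Leaving out each array gave 2127 to 4045 higher and 2220 to 4882 lower probe sets between Flk1-positive cells and WT embryos, 2608 to 3853 higher and 3265 to 3970 lower against Flk1 KO embryos, and 0 for Flk1 KO against WT embryos. Over the same 6 fits the member probe sets called against WT embryos were 8 to 9 higher and 2 to 3 lower. Signs of values without a call also turned. In Flk1 KO against WT embryos, median centring gave 0.10 for Smad6, 0.0068 for Id2 and 0.074 for Id3, and the median over probe sets gave -0.17 for Smad7 and 0.57 for Id2. Leaving out each array gave -0.039 to 0.147 for Bmp4, -0.106 to 0.095 for Smad6, -0.169 to 0.195 for Smad7, -0.204 to 0.015 for Id2 and -0.397 to 0.342 for Id3. For Id3, median centring gave 0.025 against WT embryos and -0.049 against Flk1 KO embryos in Flk1-positive cells, and leaving out each array gave -0.064 to 0.024 and -0.362 to 0.377. A filter on the mean linear signal, chosen after seeing the data, changed no member call. The cause of these changes was not tested.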
